A study of Mus musculus with 8 samples.

Results

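Complement is a cascade of serum and tissue proteins that tags targets for clearance. In its classical arm, C1q binds a target and switches on the serine proteases C1r and C1s, which cut C4 and C2, and the enzyme made from these cuts C3, the step at which all arms meet. C1 inhibitor, the product of Serping1, inactivates C1r and C1s. In the brain, astrocytes and microglia make complement themselves, with C1q made mainly by microglia, and C3 and Serping1 are among the transcripts used to mark reactive astrocytes.

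The genes described here are C1ra, C1rl, C1s1, C2, C3, C4b, Cfb and Serping1, a list of 8 named complement genes other than C1q. Rows of the deposited count table were matched to them by symbol, and 7 of the 8 were found among 13607 genes. Cfb, which encodes factor B of the alternative arm, had no row and was not analysed here. It shares 79.5% of its exonic bases with Gm20547, a read-through model on the same strand that also had no row. How such reads were counted is unknown, so the missing row does not show that Cfb was unexpressed. Every gene in the table reached about 1 CPM (counts scaled to a common library total) in at least 2 libraries. C1rl, and some of the other genes listed below, did so only in groups where they were high, so they had to differ between groups. Counts of measured genes below are descriptions rather than support for one direction.

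The RNA came from cultured astrocytes of C57BL/6J mice with floxed Yap and Taz alleles (Yapf/f;Tazf/f), present in every group, which Cre recombinase can delete. YAP and TAZ are transcriptional co-activators of the Hippo pathway, and Wwtr1 encodes TAZ. Lentiviruses delivered HER2CA, an activated version of the growth factor receptor HER2, under doxycycline control, the activator rtTA, and CreERT2, a Cre that 4-hydroxytamoxifen (4OH-TAM) activates. The 4 groups held 2 libraries each, A and B. Control astrocytes were untreated and grew without doxycycline. HER2CA day 15 astrocytes received doxycycline for 15 days, and DMSO per one label, although the treatment protocol calls them untreated. A further group received doxycycline and 1 µM 4OH-TAM for 15 days. Gliomaspheres at passage P1 grew in suspension with doxycycline (and DMSO per one label) and were collected at 3 weeks. All grew in N-2 medium with EGF and bFGF. The labels do not say whether A and B were separate cultures, so p-values measure the spread between these libraries only. Animal age, the floxed exons, the promoters of the constructs and whether controls carried them remain not given in the sources used here.

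Libraries held 15517708 to 28231426 counts. The ribosomal transcript Rn45s took 36.1% of gliomaspheres B and 0.984% to 2.92% of the other 7 libraries. Yap1 did not follow the knockout label: its log2 fold change in the 4OH-TAM-labelled libraries against HER2CA day 15 was 0.04 (SE 0.0682, edgeR adjusted p = 0.569), and that of Wwtr1 was −0.73 (SE 0.0687, edgeR adjusted p = 1.25e-07). Counts of the whole Yap1 gene cannot show whether the floxed exons were removed. For this reason the group is called the 4OH-TAM-labelled libraries throughout. All 10 astrocyte markers on a list were measured. In HER2CA day 15 against controls, 9 were lower, 0 higher and 1 not called (edgeR adjusted p under 0.05), with a median log2 fold change of −2.10. With no scaling factors 6 were lower. Over all genes, 38.4% were called lower and 37.3% higher. Gfap, for example, lay at 975 to 1420 CPM in controls and at 324 to 350 CPM in HER2CA day 15. All libraries are bulk RNA, in which fewer cells of a type and less RNA per cell cannot be told apart.

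The complement transcripts were highest in the 4OH-TAM-labelled libraries. C3 was the clearest case. C3 lay at 1.42 and 1.44 CPM in controls, at 1.51 and 1.72 CPM in HER2CA day 15, at 62.1 and 102 in the 4OH-TAM-labelled libraries, and at 2.56 and 3.34 CPM in gliomaspheres. The libraries labelled 4OH-TAM stood far above the other 6, and they also differed 1.64-fold from each other.

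C4b, which encodes the C4 protein that C1s cleaves, had the same 4OH-TAM peak but a different order elsewhere. Control libraries held 59.7 and 76.9 CPM of C4b, HER2CA day 15 held 25.1 and 25.9 CPM, the 4OH-TAM-labelled libraries 269 and 272 CPM, and gliomaspheres 164 and 157 CPM. The 4 groups did not overlap, and gliomaspheres lay above controls. C4b has a close copy, C4a, which lay at 1.28 to 1.65 CPM in controls and 2.24 and 2.34 CPM in HER2CA day 15. In the 4OH-TAM-labelled libraries C4a lay at 1.34 to 2.03 CPM. Its difference between the day 15 groups did not pass (log2 fold change −0.44, edgeR adjusted p = 0.113). The counting of reads shared by such copies is unknown here, which makes the split between them uncertain.

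The protease genes had the same peak. C1s1, which encodes C1s, lay at 3.03 and 3.46 CPM in controls, 0.458 and 0.483 CPM in HER2CA day 15, 20.3 and 18.7 in the 4OH-TAM-labelled libraries, and 2.05 and 2.83 CPM in gliomaspheres. Its lowest values, in HER2CA day 15, rest on 10 and 14 counts. C1ra, which encodes C1r, lay at 1.54 and 1.52 CPM in controls, 0.917 and 1.03 in HER2CA day 15, 11.5 and 12.7 in the 4OH-TAM-labelled libraries, and 0.838 and 1.32 in gliomaspheres. Gliomaspheres and HER2CA day 15 overlapped for C1ra. C1rl, a C1r-like protease gene, was scarcer, at 0.384 and 0.659 CPM in controls, 0.183 and 0.103 (4 and 3 counts) in HER2CA day 15, 3.26 and 2.68 in the 4OH-TAM-labelled libraries, and 1.76 and 1.82 in gliomaspheres. As with C4b, gliomaspheres lay above controls.

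Serping1, which encodes C1 inhibitor, lay at 5.8 and 5.89 CPM in controls, 2.89 and 3.21 CPM in HER2CA day 15, 32.2 and 28.5 in the 4OH-TAM-labelled libraries, and 3.27 and 4.96 CPM in gliomaspheres. The 4OH-TAM-labelled libraries again stood above the other 6. C2 encodes the other substrate of C1s. It lay at 1.04 and 0.989 CPM in controls, 1.51 and 1.21 CPM in HER2CA day 15, 2.68 and 1.91 in the 4OH-TAM-labelled libraries, and 0.671 and 0.607 CPM in gliomaspheres. C2 shares 42.8% of its exonic bases with Gm20547, a read-through model on the same strand, so its counts may be incomplete.

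**Figure D1:**
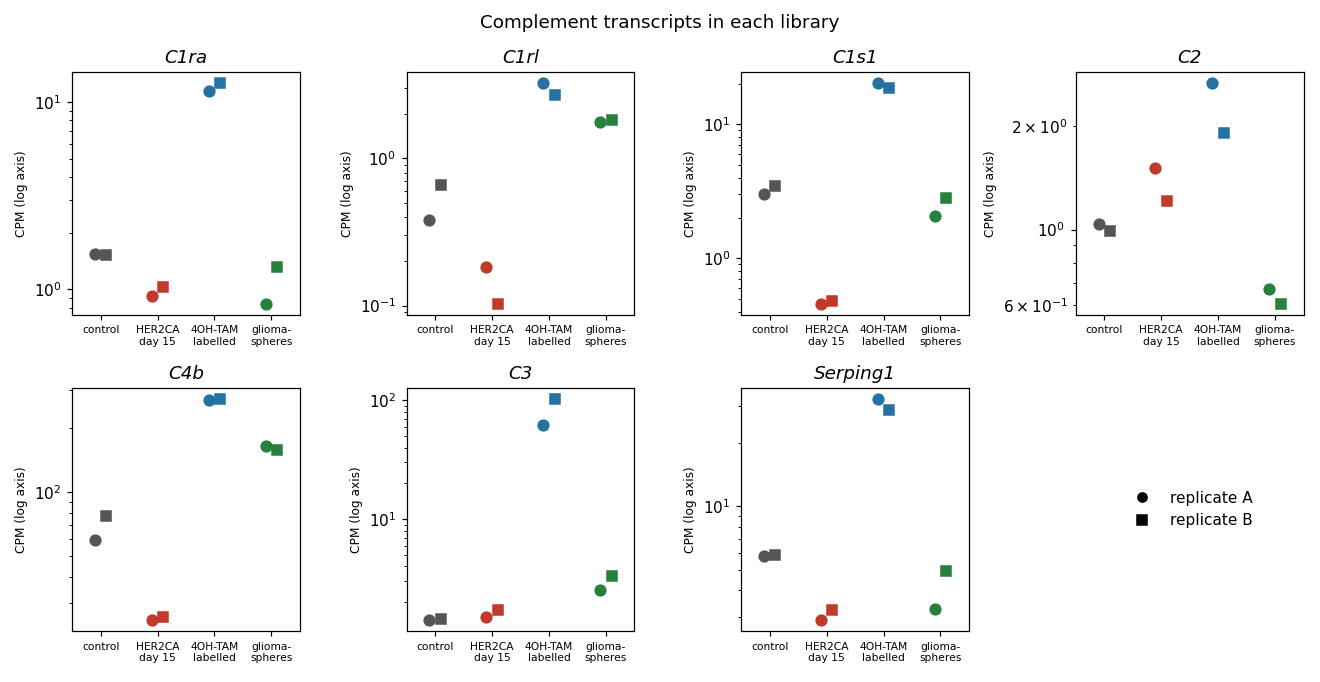
Each panel plots one complement gene, with CPM on a log axis for each of the 8 libraries (circles replicate A, squares replicate B) in the 4 groups. The libraries labelled 4OH-TAM are highest in every panel, and gliomaspheres lie above controls for C4b, C1rl and C3.

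Genome position sets 5 of these genes into 2 clusters (GENCODE M21, GRCm38). C1rl (chromosome 6, 124493113 to 124510643), C1ra (124512405 to 124523443) and C1s1 (124530345 to 124542359) are neighbours. C4b (chromosome 17, 34728380 to 34743882) and C2 (34862604 to 34898265) lie in the MHC region. C3 is elsewhere on chromosome 17 (57203970 to 57228136), and Serping1 is on chromosome 2 (84765387 to 84775444). All 7 are protein-coding.

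RefSeq promoter windows (GRCm38.p6), reaching from 250 bases before a start site to 50 after it, were matched for 4 of the genes, C3 and the protease trio, and these are shown. Capitals mark matches to 6 motifs, searched on both strands.
C3, chr17:57228087-57228386, minus strand: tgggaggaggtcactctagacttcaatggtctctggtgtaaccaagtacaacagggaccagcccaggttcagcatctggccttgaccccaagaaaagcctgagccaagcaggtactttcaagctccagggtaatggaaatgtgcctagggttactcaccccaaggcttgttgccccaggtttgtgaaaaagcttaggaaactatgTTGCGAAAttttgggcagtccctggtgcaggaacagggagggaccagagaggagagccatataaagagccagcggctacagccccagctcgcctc
C1s1, chr6:124542310-124542609, minus strand: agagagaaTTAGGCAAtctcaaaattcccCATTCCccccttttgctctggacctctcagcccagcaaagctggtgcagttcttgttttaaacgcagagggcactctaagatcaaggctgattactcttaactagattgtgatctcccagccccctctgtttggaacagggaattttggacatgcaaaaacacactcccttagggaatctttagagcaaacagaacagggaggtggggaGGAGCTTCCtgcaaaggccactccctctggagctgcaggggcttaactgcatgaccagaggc
C1ra, chr6:124512371-124512670, plus strand: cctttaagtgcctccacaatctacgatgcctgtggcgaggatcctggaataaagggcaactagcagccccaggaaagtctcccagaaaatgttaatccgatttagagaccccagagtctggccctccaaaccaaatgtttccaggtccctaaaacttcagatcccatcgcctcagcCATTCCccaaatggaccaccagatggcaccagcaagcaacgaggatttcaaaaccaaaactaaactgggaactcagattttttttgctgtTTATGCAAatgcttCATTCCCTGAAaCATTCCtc
C1rl, chr6:124492863-124493162, plus strand: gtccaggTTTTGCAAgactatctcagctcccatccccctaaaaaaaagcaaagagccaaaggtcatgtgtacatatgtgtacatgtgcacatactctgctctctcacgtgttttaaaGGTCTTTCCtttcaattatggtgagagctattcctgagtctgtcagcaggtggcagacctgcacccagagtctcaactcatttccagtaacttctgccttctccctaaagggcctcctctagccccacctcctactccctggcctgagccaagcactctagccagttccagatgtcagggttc

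The motifs were the gamma-activated site TTCNNNGAA, bound by STAT factors, the interferon-stimulated response element GAAANNGAA, the kappa B motif GGNNNTTCC, the CEBP motif TTGCNNAA, the AP-1 motif TGANTCA, and GGAATG, the motif of the TEAD factors through which YAP and TAZ act. CEBP letters occurred in all 4 windows, 45 bases upstream of the C3 start, 242 bases upstream for C1s1, 243 bases upstream for C1rl and 16 bases downstream for C1ra. They occurred in 10.8% of 32851 promoter windows. TEAD letters occurred in the windows of C1ra, 74 bases upstream and 30 and 42 bases downstream, and of C1s1, 221 bases upstream, against 14.7% of windows. A gamma-activated site lay 32 bases downstream of the C1ra start and overlapped the TEAD match there (8.3% of windows). The C1ra window begins at 124512371 and the GENCODE gene at 124512405, so the RefSeq start lies inside that gene. The C1ra distances hold for the RefSeq start only, and from the GENCODE start all its matches lie inside the gene. Kappa B letters lay 12 bases upstream in C1s1 and 133 bases upstream in C1rl (18.5% of windows). The interferon-stimulated element (8.56% of windows) and AP-1 (7.81%) letters were not in these 4 windows. C1s1 has another listed window, in which the same kappa B letters lie 50 bases upstream of the start and no other of the 6 motifs is found.

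The first comparison was between the day 15 groups, both with the oncogene induced and labelled with or without 4OH-TAM, given to delete YAP and TAZ. Against HER2CA day 15, all 7 measured genes were higher in the 4OH-TAM-labelled libraries (edgeR quasi-likelihood, adjusted p under 0.05), where 40.8% of 13607 genes were called higher, 39.7% lower and 80.5% in either direction. That background is large, and it depends on scaling: of the genes called, 50.7% were higher with the scaling used here, 61.5% with upper-quartile factors and 68% with none. The median log2 fold change of the 7 was 3.61, against 0.01 over all genes, or 0.22 with upper-quartile factors.

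The log2 fold change of C3 was 5.64 (SE 0.237, edgeR adjusted p = 1.64e-11). That of C1s1 was 5.35 (SE 0.204, edgeR adjusted p = 6.26e-12), 40.8-fold. For C1rl it was 4.37 (SE 0.371), for C1ra 3.61 (SE 0.188), for C4b 3.41 (SE 0.103) and for Serping1 3.31 (SE 0.156). Ranked among all genes, these 6 ran from percentile 95.7 for Serping1 to 99.3 for C3. Beside these values, 14 microglia and macrophage markers summed to 242 to 256 CPM in HER2CA day 15 and 1060 to 1100 CPM in the 4OH-TAM-labelled libraries, most of it through Lyz2 (means of 40.4 and 721 CPM), and their part in the result was not tested. C2 stood apart, with a log2 fold change of 0.77 (SE 0.241, edgeR adjusted p = 0.00856) at percentile 71.8. The C2 call was lost with DESeq2 (adjusted p = 0.0832), in a test against a 1.5-fold change, without HER2CA day 15 replicate B (edgeR adjusted p = 0.0946) and without 4OH-TAM replicate A (0.128).

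The same libraries were also above untransformed controls. Against controls, the 7 genes were again higher in the 4OH-TAM-labelled libraries, where 31% of all genes were called higher, 28.2% lower and 59.2% in either direction. C3 differed 57.0-fold (log2 fold change 5.83, SE 0.242, edgeR adjusted p = 1.34e-10), C1ra 7.86-fold and C1s1 6.01-fold. C1rl was 5.69-fold, Serping1 5.19-fold, C4b 3.96-fold and C2 2.26-fold higher. The median log2 fold change was 2.51, against 0 over all genes.

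Oncogene induction without 4OH-TAM went with lower levels of part of the set. Against controls, HER2CA day 15 had 5 of 7 genes lower and 0 higher, where 38.4% of all genes were called lower, 37.3% higher and 75.8% in either direction. C1s1 fell by 2.77 on the log2 scale (SE 0.26, edgeR adjusted p = 1.33e-07), C4b by 1.42 (SE 0.102) and Serping1 by 0.93 (SE 0.178). The log2 fold change of C1rl was −1.87 (SE 0.542, edgeR adjusted p = 0.0057), a call lost without HER2CA day 15 replicate B (0.0707) or control replicate B (0.0666). C1ra, at −0.64 (SE 0.256, edgeR adjusted p = 0.035), lost its call without any of HER2CA day 15 A or B or control A or B (0.0709 to 0.116), with DESeq2 (0.0812) and with no scaling factors (0.156). C3 (0.19, SE 0.394, edgeR adjusted p = 0.674) and C2 (0.40, SE 0.284, edgeR adjusted p = 0.206) did not pass. HER2CA day 15 libraries enter this comparison and the 4OH-TAM one, so their opposite directions are not independent.

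Gliomaspheres split the set. Against controls, C4b was 2.35-fold higher (log2 fold change 1.23, SE 0.0952, edgeR adjusted p = 2.99e-08) and C1rl 3.42-fold higher (1.77, SE 0.336). C3 was 1.96-fold higher (0.97, SE 0.385, edgeR adjusted p = 0.0385), but its call was lost with no scaling factors (0.16) and without any one library of gliomaspheres, controls or HER2CA day 15 (0.058 to 0.119). Serping1 was lower (−0.60, SE 0.188, edgeR adjusted p = 0.0113), a call lost without gliomaspheres replicate A (−0.24, edgeR adjusted p = 0.391). C1s1 (−0.49, edgeR adjusted p = 0.0523), C1ra (−0.63, 0.0657) and C2 (−0.63, 0.142) did not pass. Without gliomaspheres replicate B, the library rich in Rn45s, C1ra (−0.87, edgeR adjusted p = 0.0338) and C1s1 (−0.66, 0.0222) passed, and C1s1 also passed with upper-quartile factors (−0.53, 0.0365). In all, 3 genes were higher and 1 lower, where 32.5% and 32% of all genes were (64.5% in either direction).

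Set against HER2CA day 15, gliomaspheres had 3 genes higher and 1 lower (all genes 38.4% and 40.4%, 78.8% in either direction). C1rl differed 12.5-fold (log2 fold change 3.64, SE 0.44), C4b 6.3-fold (2.66, SE 0.103) and C1s1 4.85-fold (2.28, SE 0.297). C2 was lower (−1.04, SE 0.348, edgeR adjusted p = 0.013), a call lost without HER2CA day 15 replicate A (0.0638) or gliomaspheres replicate A (0.0832) and with DESeq2 (0.0571). C3 (0.78, SE 0.375, edgeR adjusted p = 0.0689), Serping1 (0.33, SE 0.206, edgeR adjusted p = 0.156) and C1ra (0.01, SE 0.315, edgeR adjusted p = 0.988) did not pass. C3 passed with upper-quartile factors (0.0385), DESeq2 (0.0358), a fit of only the groups compared (0.00833), the replicate block (0.00328), and without either 4OH-TAM-labelled library (0.00389 and 0.00459). Serping1 passed without gliomaspheres replicate A (0.0186).

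Against the 4OH-TAM-labelled libraries, gliomaspheres were lower for the 7 genes, where 29.7% of all genes were called lower, 31.3% higher and 61% in either direction. C3 fell by 4.86 on the log2 scale (SE 0.237), C1ra by 3.60 (SE 0.211), C1s1 by 3.07 (SE 0.171), Serping1 by 2.98 (SE 0.164) and C2 by 1.81 (SE 0.314). C4b fell by 0.75 (SE 0.092, edgeR adjusted p = 5.23e-06) and C1rl by 0.73 (SE 0.244, edgeR adjusted p = 0.017). The C1rl call was lost without 4OH-TAM replicate A (0.115), without gliomaspheres replicate A (0.125) and with DESeq2 (0.144).

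**Figure D2:**
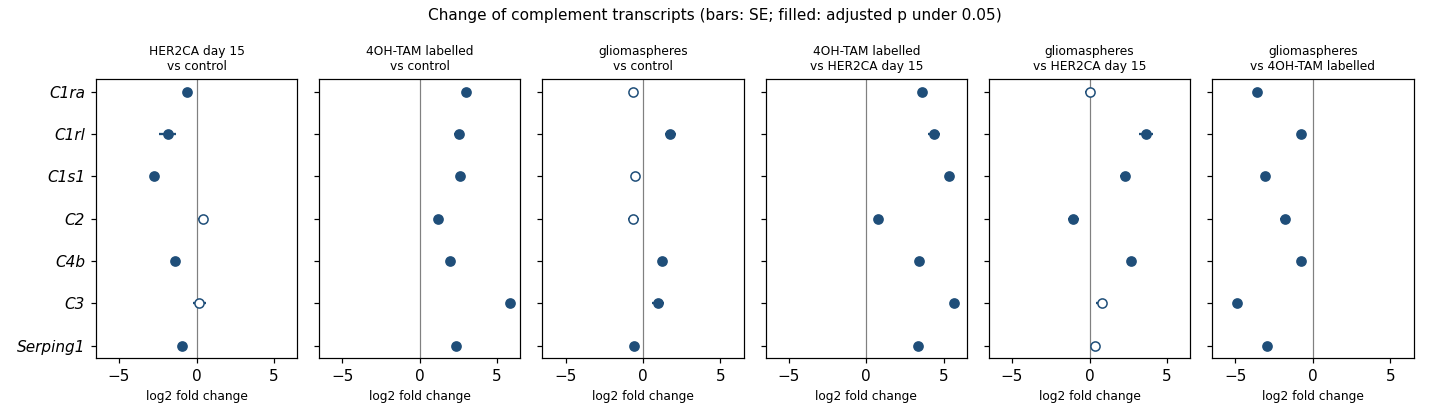
Log2 fold change of the 7 genes in the 6 comparisons, with bars of 1 SE (edgeR, 8 libraries) and filled points for adjusted p under 0.05. C3 and C1s1 change most between the day 15 groups, at 5.64 and 5.35, and C2 runs from −1.81 to 1.18 over the 6 comparisons.

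Levels per length allow the genes to be compared with each other. CPM was divided by the kilobases of exon annotated for each gene. C2 counts may be incomplete, the split of C4b from C4a is uncertain, and the annotation used for counting is not known. The order and shares below are therefore approximate. C4b was the most abundant in every group, at 10.5 to 13.5 CPM per kb in controls, 4.41 to 4.55 in HER2CA day 15, 47.2 to 47.8 in the 4OH-TAM-labelled libraries and 27.6 to 28.8 in gliomaspheres. Serping1 came next in controls (2.49 to 2.53 CPM per kb), HER2CA day 15 (1.24 to 1.38) and gliomaspheres (1.41 to 2.13). In the 4OH-TAM-labelled libraries, C3 (12.1 to 19.8 CPM per kb) and Serping1 (12.3 to 13.8) overlapped for that place. C3 stood at rank 5 of 7 in the other groups, where it lay at 0.276 to 0.649 CPM per kb.

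The remaining order changed with the group. In controls C1s1, C1ra, C3, C2 and C1rl followed in that order without overlap. In HER2CA day 15, C2, C1ra and C3 overlapped their neighbours, and C1s1 and C1rl were lowest. In gliomaspheres C1rl (0.585 to 0.605 CPM per kb) and C3 (0.498 to 0.649) overlapped, and C2 was lowest.

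Composition within the set shifted as well. C4b made up 69.3% and 73.4% of the summed CPM per kb of the 7 genes in controls, 64.4% and 64.0% in HER2CA day 15, 55.4% and 52.2% in the 4OH-TAM-labelled libraries, and 88.9% and 84.9% in gliomaspheres. C3 made up 14.2% and 21.7% in the 4OH-TAM-labelled libraries and 1.52% to 4.7% in the other 6. The ratio of C1s1 to C1ra per kb was 1.87 and 2.17 in controls, 0.476 and 0.447 in HER2CA day 15, 1.68 and 1.4 in the 4OH-TAM-labelled libraries, and 2.33 and 2.04 in gliomaspheres. C1s1 was thus below C1ra in HER2CA day 15 and above it elsewhere. In HER2CA day 15, C1s1 rests on 10 and 14 counts, and C1ra on 20 and 30. The paralogue C1s2, left out of these ratios, lay there at 0.871 and 0.897 CPM, above C1s1 at 0.458 and 0.483 CPM. Serping1, the inhibitor, stood at 8.49 and 8.94 times C1s1 per kb in HER2CA day 15 and at 2.05 to 2.58 times in the other libraries.

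**Figure D3:**
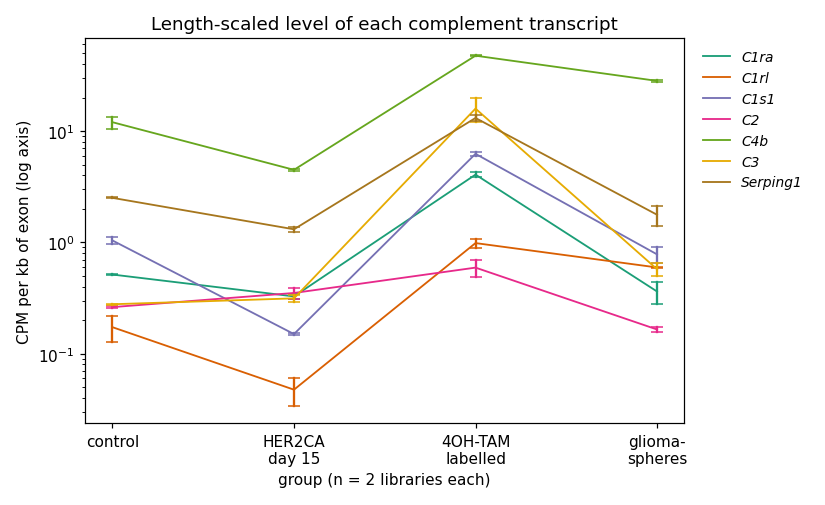
Level per kb of exon (log axis) of each complement gene in the 4 groups; bars span both libraries, and lines only join the group means of one gene. C4b is highest in every group, and C3 moves from the lower part of the range to 12.1 to 19.8 CPM per kb in the 4OH-TAM-labelled libraries.

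Profiles over the 8 libraries were compared by Pearson's r of log2 CPM, as a description, since the libraries form 4 groups of 2 and share their group differences. Among the members, C1ra and Serping1 (r = 0.992) and C1rl and C4b (0.991) ran closest, and C1rl and C2 least (0.141). Of 10795 genes of at least 5 CPM, the closest to C3 were Oasl2 (0.9925), an interferon-induced gene, Dnah9 (0.991), a dynein chain of motile cilia, and Spef2 (0.9907). For C1s1 they were Lgals3bp (0.9997), Sept4 (0.9983) and Slx1b (0.9981), and for C1ra the MHC class I gene H2-Q4 (0.9944), Serping1 and C1qa (0.9916). For C4b they were Gpr17 (0.9979), a receptor of the oligodendrocyte lineage, Fnbp1 (0.9955) and Efnb3 (0.9937). For Serping1 they were Lgr4 (0.9948), Gpnmb (0.9944) and H2-Q4 (0.9937), for C1rl Dusp3 (0.993), Sirt2 (0.9928) and C4b, and for C2 Slc6a6 (0.9805), Ppapdc2 (0.9783) and Tmem67 (0.9721).

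Genes next to the complement loci were read in the same comparison of the day 15 groups. Within 100 kb of the C1r and C1s trio, Clstn3 had a log2 fold change of 2.73 and Pex5 one of −0.08. The paralogue C1s2 had one of 0.53 (SE 0.274, edgeR adjusted p = 0.0862), and passed with upper-quartile factors (0.74, 0.0225). Of 17 measured neighbours of C2 and C4b, 3 were higher and 6 lower, with a median of 0.02, where 40.8% and 39.7% of all genes were. C3 had 5 such neighbours, 3 higher and 2 lower, and Serping1 had 7, 2 higher and 4 lower. Their log2 fold changes ran from −1.05 to 3.76 near C2 and C4b, −0.67 to 2.67 near C3 and −1.23 to 2.82 near Serping1.

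The rest of the cascade was taken from lists of complement genes. Of 24 further components, 12 were measured. Against HER2CA day 15, 7 of these were higher and 3 were lower in the 4OH-TAM-labelled group (edgeR quasi-likelihood, adjusted p under 0.05), with a median log2 fold change of 0.82, beside 40.8% of all genes higher, 39.7% lower and an all-gene median of 0.01. The C1q chain genes, C1qa, C1qb and C1qc, rose by log2 fold changes of 2.75 (SE 0.134), 2.74 (SE 0.103) and 2.80 (SE 0.123). The scavenger-type collectin Colec12 (2.10, SE 0.104), the terminal pathway gene C8g (2.23, SE 0.319), the lectin pathway protease Masp1 (0.90, SE 0.206) and properdin, Cfp (0.74, SE 0.167), also rose. Lower were Masp2 (−2.10, SE 0.162), Colec11 (−1.07, SE 0.441) and Hc, which encodes C5 (−0.45, SE 0.187); the last pair lost their calls with no scaling factors and with upper-quartile ones. HER2CA day 15 against controls had 3 of these 12 higher, Hc, Masp2 and C4a, and 5 lower, which is near the all-gene shares of 37.3% and 38.4%. C4a lost its call with upper-quartile and with no scaling factors, and C1qa and C1qc, among the lower, with no scaling factors.

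Regulators that protect host cells were mixed. Of 19 listed, 16 were measured, and 11 were higher and 4 lower in the same comparison, with a median log2 fold change of 1.42 (all genes 40.8% and 39.7%, median 0.01). Cd59a, which blocks the membrane attack complex, rose from 1.7 and 2.1 to 10.1 and 10.5 CPM. Clusterin, Clu (log2 fold change 2.12, SE 0.095), vitronectin, Vtn (2.97, SE 0.132), and Susd4 (2.44, SE 0.184) rose. The protease gene Cfi, factor I, had 210 counts against 0, at least 68.1-fold higher when the 0 is set to 3 counts over the group, and controls had 7 counts. The brain genes Csmd1 (0.87, SE 0.0973), Csmd2 (1.88, SE 0.165), Csmd3 (3.45, SE 0.512), Sez6 (0.61, SE 0.0907) and Sez6l (7.38, SE 0.28) also rose. Cfi and Csmd3 reached about 1 CPM only in the 4OH-TAM-labelled libraries and gliomaspheres. The level needed for a row thus favoured their direction, which is a description only. Decay-accelerating factor, Cd55, fell by 1.14 (SE 0.202). Cd46 was lower by the same test (−0.67, SE 0.276, edgeR adjusted p = 0.0367; 0.137 with upper-quartile and 0.23 with no scaling factors). Cr1l, which encodes the rodent membrane regulator Crry, had −0.09 (SE 0.0885, edgeR adjusted p = 0.336), and its sign changed with upper-quartile (0.11) and no scaling factors (0.03). The other lower ones were C1qbp (−1.71, SE 0.0665) and Sez6l2 (−2.35, SE 0.225). Against controls, HER2CA day 15 had 6 of 16 regulators higher and 8 lower, beside 37.3% and 38.4% of all genes. Of the 6, Cr1l (0.151) and Cd46 (0.181) lost their calls with no scaling factors, and Cd46 also with upper-quartile factors (0.11). Cd55 (1.45, SE 0.21) was among the higher, and Clu (−1.95, SE 0.0945), Vtn (−2.50, SE 0.134) and Cd59a (−1.35, SE 0.204) were among the lower.

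Of 12 listed receptors, 9 were measured, and 8 were higher and 1, Calr (−0.53, SE 0.0951), lower, with a median log2 fold change of 1.88 (all genes 40.8% and 39.7%, median 0.01). Calr lost its call with no scaling factors (0.252). C3ar1, the C3a receptor, went from 3.79 and 4.45 to 25.6 and 28.2 CPM (log2 fold change 2.72, SE 0.136). The C5a receptor C5ar1 (1.60, SE 0.396) and the CR3 chains Itgam (2.41, SE 0.235) and Itgb2 (1.88, SE 0.131) rose. C5ar1 reached about 1 CPM only in the 4OH-TAM-labelled libraries, so the level needed for a row fixed its direction. Also higher were the phagocytic receptor Megf10 (2.26, SE 0.0914), which astrocytes express, Lrp1 (1.10, SE 0.0759) and Cd93 (3.14, SE 0.25). Itgax had 0.64 (SE 0.23, edgeR adjusted p = 0.0182; 0.0687 with no scaling factors). HER2CA day 15 had 7 receptors lower and 0 higher than controls (4 lower with no scaling factors), where 38.4% and 37.3% of all genes were.

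**Figure D4:**
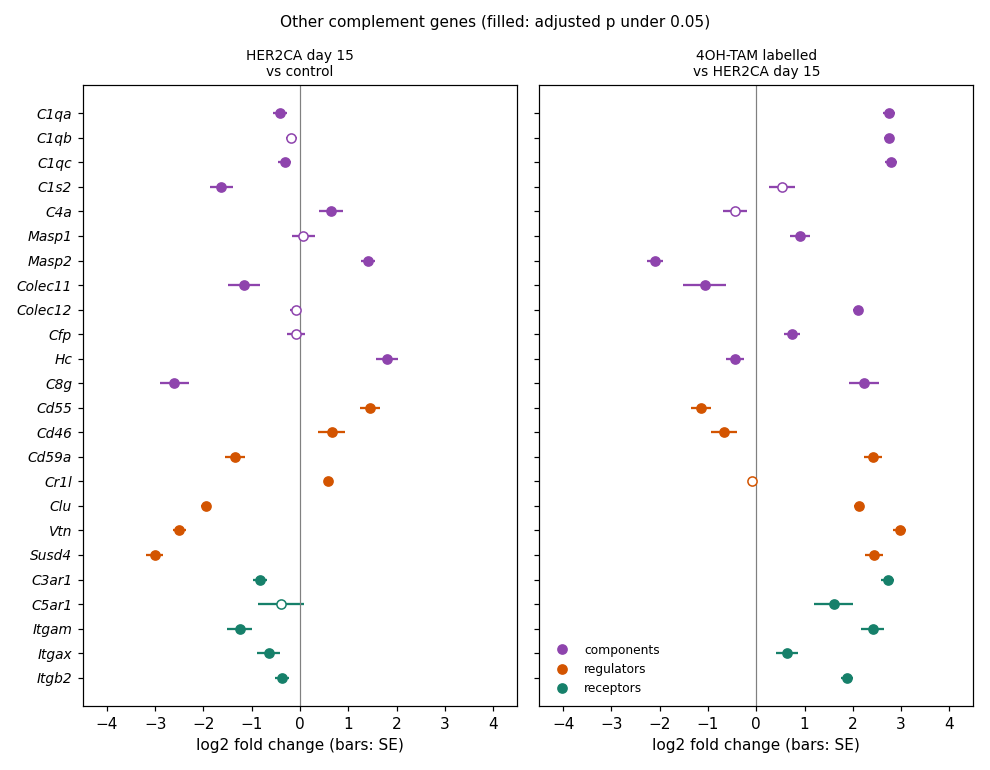
Log2 fold change (bars 1 SE, edgeR) of further components, regulators and receptors in HER2CA day 15 against controls and in the 4OH-TAM-labelled libraries against HER2CA day 15; filled points have adjusted p under 0.05. Cfi, at 0 counts in HER2CA day 15, 1 other regulator and the C1qbp, Csmd, Sez6, Cd93, Calr, Lrp1 and Megf10 genes are not drawn. C1q chains and C3ar1 lie between 2.72 and 2.80 on the right, while Masp2, Cd55 and Cd46 lie below 0.

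Markers of other cells were also read in the 4 groups. Summed over 14 measured microglia and macrophage markers of 15 listed, levels were 246 to 272 CPM in controls, 242 to 256 in HER2CA day 15, 1060 to 1100 in the 4OH-TAM-labelled libraries and 129 to 133 in gliomaspheres. Of these 14, 13 were higher and 1 lower in the 4OH-TAM-labelled libraries than in HER2CA day 15, where 40.8% and 39.7% of all genes were, and 0 were at 0 counts in any group. Lyz2 carried most of the rise in the sum, from a mean of 40.4 to one of 721 CPM. The lower one, Cd68 (−0.54, SE 0.084), lost its call with no scaling factors (0.232). Csf1r (3.99 and 4 to 20.6 and 21.7 CPM) was among the higher ones. Tmem119 lay at 0.0345 to 0.0458 CPM in HER2CA day 15 and at 0.995 to 1.34 CPM with 4OH-TAM. Tmem119 reached about 1 CPM only with 4OH-TAM, so the level needed for a row fixed its direction. Gliomaspheres against controls had 1 of the 14 higher and 8 lower, where 32.5% and 32% of all genes were. Cd68 went from a mean of 88.5 to one of 11.6 CPM, which made up most of the lower sum.

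Astrocyte markers summed to 5810 to 6780 CPM in controls, 2820 to 2900 in HER2CA day 15, 12400 to 12900 in the 4OH-TAM-labelled libraries and 11300 to 11700 in gliomaspheres. All 10 were higher in the 4OH-TAM-labelled libraries than in HER2CA day 15, 9 of them with no scaling factors, beside the same all-gene share of 40.8%. Fibroblast and mural markers (11 of 12 measured) summed to 3900 to 4190 CPM in HER2CA day 15 and 1630 to 1820 in the 4OH-TAM-labelled libraries, with 8 higher and 3 lower (all genes 40.8% and 39.7%). That lower sum was mainly Fn1, from a mean of 3540 to one of 1200 CPM, whereas Pdgfrb, for example, went from 2.39 to 26.5 CPM. Of 10 endothelial markers 3 were measured, and these 3 were higher, where 40.8% of all genes were. They summed to 3.14 to 3.48 CPM in HER2CA day 15, against 27.6 to 30.8 CPM in the 4OH-TAM-labelled libraries. Kdr, among these, reached about 1 CPM only with 4OH-TAM, so the level needed for a row fixed its direction. The part of these cell types in the complement values was not tested.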

How the data were processed

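The authors deposited whole-number read counts per gene symbol, not normalised, as the values show. RNA was polyA-selected for stranded libraries, per the labels' protocols and the design text. Tools in the submitters' processing notes are STAR 2.5.3a, FastQC and featureCounts; their builds are GRCm38 and mm10. The annotation and strand setting remain not given in the sources used here. Reads shared with antisense genes (Gm16567 covers 18.4% of C1s1 exonic bases) may not be separable.

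Columns were matched to samples by title. edgeR 4.0.16 (R 4.3.3) fitted all 8 libraries by quasi-likelihood, with TMM factors, a mean for each group and filterByExpr, which kept 13607 of 13607 genes; common coefficient of variation 0.0685. Adjusted p-values are Benjamini-Hochberg over all genes, at 0.05, and SE is the absolute log2 fold change over the square root of F. CPM used library sizes multiplied by TMM factors. Exon lengths and positions come from GENCODE M21. Replicates differed by more than sampling noise (chi-square over its degrees of freedom, 4.05 to 733; 4.02 to 21.8 without Rn45s and Lars2), so no library was merged. The model was checked on simulated counts.

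The members, lists and tests were chosen with earlier results of these data known. Genes named follow a rule: all members, the C1q genes, C3 and C5 receptors and regulators, the 3 called genes of each list with the lowest p in the day 15 comparison or in HER2CA day 15 against controls, and the 3 nearest profiles per member; some genes it names are given only in counts or are not reported here. Gfap, Masp1, Cfp, Colec11, Colec12, C4a, C1s2, Clstn3, Pex5, Calr, Cd93, Cd68, Tmem119, Fn1, Lcn2, Aspg and Jak2 fall outside it and were chosen after their values were seen. Alternatives were other scalings, filters, DESeq2 1.42.0, fits of 2 groups, a test against a 1.5-fold change, a replicate block, removal of Rn45s and Lars2, and each library left out. Protein sequences were not used here.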

Additional observations from a re-analysis of the deposited data

How the results depend on the processing

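Of 34 member changes that passed, none reversed under the alternatives that gave them a value. Fitting with no filter was identical to the reported fit and the 1.5-fold test keeps its log2 values, so neither could reverse one. Over the 18 alternatives no log2 value moved by more than 0.43; 32 of 743 alternative values lost a call and 11 gained one. C1ra in gliomaspheres against HER2CA day 15, which did not pass (0.01), changed sign with no scaling factors (−0.22), without HER2CA day 15 replicate A (−0.07) and without gliomaspheres replicate B (−0.19), and was 0 with Rn45s and Lars2 removed; it ran from −0.19 to 0.42 with a library left out. Members lower in gliomaspheres than in controls numbered 1, against 2 with upper-quartile factors, 2 with Rn45s and Lars2 removed, 0 in the test against a 1.5-fold change and 0 to 3 with a library left out. Members lower in gliomaspheres than in HER2CA day 15 numbered 1, against 0 with a filter of 5 CPM in 2 libraries (which drops C1rl and C2), with DESeq2 and in the 1.5-fold test, and 0 to 1 with a library left out. Members lower in HER2CA day 15 than in controls numbered 5, or 3 to 5 with a library left out. The cause of these shifts was not tested. Where a group keeps 1 library, that library is assumed to vary like the other groups. C1rl did not pass the low-count filter, so had no value, in the 2-group fit of HER2CA day 15 against controls.

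The replicate letters showed no shared shift: deviations of same-lettered libraries from their group means correlated at −0.0314 to 0.0554 between groups. Whether same-lettered libraries were paired is not given by the labels. With the replicate block, called genes over the whole table went from 10947 to 10948 between the day 15 groups, and among members 1 call changed, that of C3 in gliomaspheres against HER2CA day 15 (0.91, edgeR adjusted p = 0.00328).

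Over all genes, with no scaling factors, called genes fell from 10947 to 6375 (4OH-TAM label against HER2CA day 15), from 8061 to 2654 (against controls, 79.7% higher instead of 52.4%), from 10308 to 5890 (HER2CA day 15 against controls, 39.1% instead of 49.3%), from 8780 to 4646 (gliomaspheres against controls, 29.8% instead of 50.4%) and from 8296 to 4199 (against the 4OH-TAM label, 17.8% instead of 51.3%). In the 1.5-fold test the counts in the same order were 6071, 2417, 5456, 3393 and 3025, and 6237 instead of 10727 for gliomaspheres against HER2CA day 15. C1rl and C2 rest on 3 to 85 counts per library, which limits their precision.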

Other observations

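Genes that signal to complement promoters and genes that mark reactive astrocytes together with C3 were also read. Of 32 cytokine receptors, STAT, IRF, NF-kB and CEBP genes listed, 19 were higher and 8 lower in the 4OH-TAM-labelled libraries than in HER2CA day 15 (edgeR quasi-likelihood, adjusted p under 0.05; 15 and 2 with no scaling factors), where 40.8% and 39.7% of all genes were. The interleukin 1 receptor gene Il1r1 went from 8.42 and 9.26 to 44.2 and 44.4 CPM, and Nfkbiz, an NF-kB cofactor, from 11.8 and 12.4 to 35.7 and 36.6 CPM. Jak2 and Stat3 were lower (log2 fold changes −0.68 and −0.24), calls that did not hold with no scaling factors.

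Of 23 measured reactive astrocyte genes other than the complement members, 21 were higher and 1 lower in that comparison (all genes 40.8% and 39.7%). Lcn2 and Aspg reached about 1 CPM only in the 4OH-TAM-labelled libraries, so the level needed for a row fixed their direction. The log2 fold change was 4.08 (SE 0.1) for S1pr3, 5.48 (SE 0.217) for Iigp1, an interferon-induced GTPase, and 1.97 (SE 0.0749) for Ggta1. Iigp1 reached about 1 CPM only in the 4OH-TAM-labelled libraries and gliomaspheres, so the level needed for a row also favoured its direction. The lower one was Gbp2, another interferon-induced GTPase. It lay at 26.2 and 29.2 CPM in controls, 160 and 169 CPM in HER2CA day 15, 47.4 and 48.8 in the 4OH-TAM-labelled libraries and 17.9 and 20.7 CPM in gliomaspheres, so that, unlike C3, C1s1 and Serping1, it was highest in HER2CA day 15.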
